A study of Homo sapiens with 6 samples.

Results

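The contractile actin cytoskeleton was followed through 10 genes, ACTA2, ACTN1, TPM1, TPM2, MYL9, MYLK, CALD1, TAGLN, CNN1 and CNN2, among the 18417 genes measured on 6 microarrays of H358 cells. H358, an established human line from a non-small cell lung cancer, grows with an epithelial look. Members were taken as the probe sets whose annotation gives exactly 1 gene symbol out of these 10, and the brightest probe set over the 6 arrays stood for a gene. All 10 genes were found, each with 1 such probe set. One line carried green fluorescent protein (GFP, 3 arrays) and the other TwistER (3 arrays). Constructs of the TwistER kind carry the Twist transcription factor in a form that 4-hydroxytamoxifen (4OHT) switches on. Both lines were kept in 100 nM 4OHT for 12 days, so the drug is shared by control and treated arrays. The submitters' titles place the GFP arrays before and the TwistER arrays after epithelial-mesenchymal transition (EMT). TwistER cells without 4OHT are not analysed here, so what activating the factor did cannot be told apart from anything else in which the lines differ. The labels give neither the promoter and species of the construct nor whether a line is 1 clone. The replicates are called biological, with no word on separate cultures; the p-values rest on the spread among these 6 arrays, which may be partly technical.

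In non-muscle cells actin filaments, bundled by alpha-actinin and coated by tropomyosin, are pulled by myosin II in cables called stress fibres. Myosin pulls once its regulatory light chain is phosphorylated, which myosin light chain kinase does and myosin phosphatase undoes, while caldesmon, transgelin and calponin bind the filament and hold contraction or filament turnover in check. Many of these genes are classical targets of serum response factor (SRF), which binds a DNA element called the CArG box, and they are high in smooth muscle, in myofibroblasts and in many cells after EMT.

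Because many of these genes are textbook SRF targets, their start sites are shown first. Of the 10 members, 8 matched RefSeq's promoter table (GRCh38.p14), with 16 windows in all, each from 250 bases before to 50 bases after a transcription start. TAGLN and MYL9 have no entry. The CArG box was searched in its standard consensus form, which reads the same on both strands, so each match counts once. It was found in 1.29% of the 35116 windows of the table. Among the members it was present in 3, namely MYLK, CNN2 and 1 of 4 ACTN1 windows. The sequences are the 200 bases upstream of those starts and of 1 ACTA2 start, 5′ to 3′ on the gene's strand, with the box in capitals; for ACTA2 the capitals mark 2 stretches that differ from the consensus at 1 base.
MYLK: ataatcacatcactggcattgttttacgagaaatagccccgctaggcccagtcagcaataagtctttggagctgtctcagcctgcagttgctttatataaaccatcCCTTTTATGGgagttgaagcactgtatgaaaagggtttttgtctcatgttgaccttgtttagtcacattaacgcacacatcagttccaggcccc
CNN2: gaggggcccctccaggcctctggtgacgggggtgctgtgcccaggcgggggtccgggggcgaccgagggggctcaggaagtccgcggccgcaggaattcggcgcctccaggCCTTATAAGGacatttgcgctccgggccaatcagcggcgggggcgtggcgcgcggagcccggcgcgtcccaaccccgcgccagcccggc
ACTN1: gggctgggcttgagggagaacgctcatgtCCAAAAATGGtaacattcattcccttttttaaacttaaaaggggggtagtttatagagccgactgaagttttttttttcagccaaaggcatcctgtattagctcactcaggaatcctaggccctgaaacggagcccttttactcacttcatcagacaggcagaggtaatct
ACTA2: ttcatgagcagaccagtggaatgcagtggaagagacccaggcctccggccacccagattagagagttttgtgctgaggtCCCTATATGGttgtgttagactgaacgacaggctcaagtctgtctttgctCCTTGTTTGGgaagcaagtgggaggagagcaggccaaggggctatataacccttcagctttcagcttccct
The MYLK window is chr3:123620549-123620748 on the minus strand, and its box CCTTTTATGG begins 94 bases upstream of the start. This start lies at 96.2% of the length of the gene, so it is an internal one near the 3′ end. The CNN2 window is chr19:1026408-1026607 on the plus strand, with CCTTATAAGG beginning 89 bases upstream. The ACTN1 window is chr14:68977567-68977766 on the minus strand, with CCAAAAATGG beginning 171 bases upstream of a start at 1.65% of the gene's length. The ACTA2 window is chr10:88952774-88952973 on the minus strand, and its near matches CCCTATATGG and CCTTGTTTGG begin 121 and 71 bases upstream. With 1 base allowed to differ, 5 members had a match, ACTA2 and CALD1 in addition to those 3. Counted by gene, 21.1% of the 14239 tested genes with a window had such a match in any window, and 1.7% an exact box. A match is a description of these letters only, and the absence of one says only that the letters are not in that window.

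The TwistER cells held more transcript of 5 of the 10 genes than the GFP cells: the filament binder CALD1, the myosin light chain MYL9, the smooth muscle actin ACTA2 and the tropomyosins TPM2 and TPM1. Their rises ran from 1.61-fold to 2.31-fold. The other 5, ACTN1, MYLK, CNN1, CNN2 and TAGLN, did not pass the test. A gene is said to rise or fall where limma's adjusted p (Benjamini-Hochberg over 18417 genes) was under 0.05, and 0 members fell, at that threshold or at an unadjusted p under 0.05. Over all genes 8.83% passed, 4.72% upward and 4.11% downward. The median log2 difference (TwistER minus GFP) was 0.69 over the 10 members and 0.006 over all genes. In 7 of the 10 every TwistER array lay above every GFP array, as it did in 13.9% of all genes. In RNA of whole cultures, more cells expressing a gene cannot be told from more RNA per cell, nor fewer from less.

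**Figure D1:**
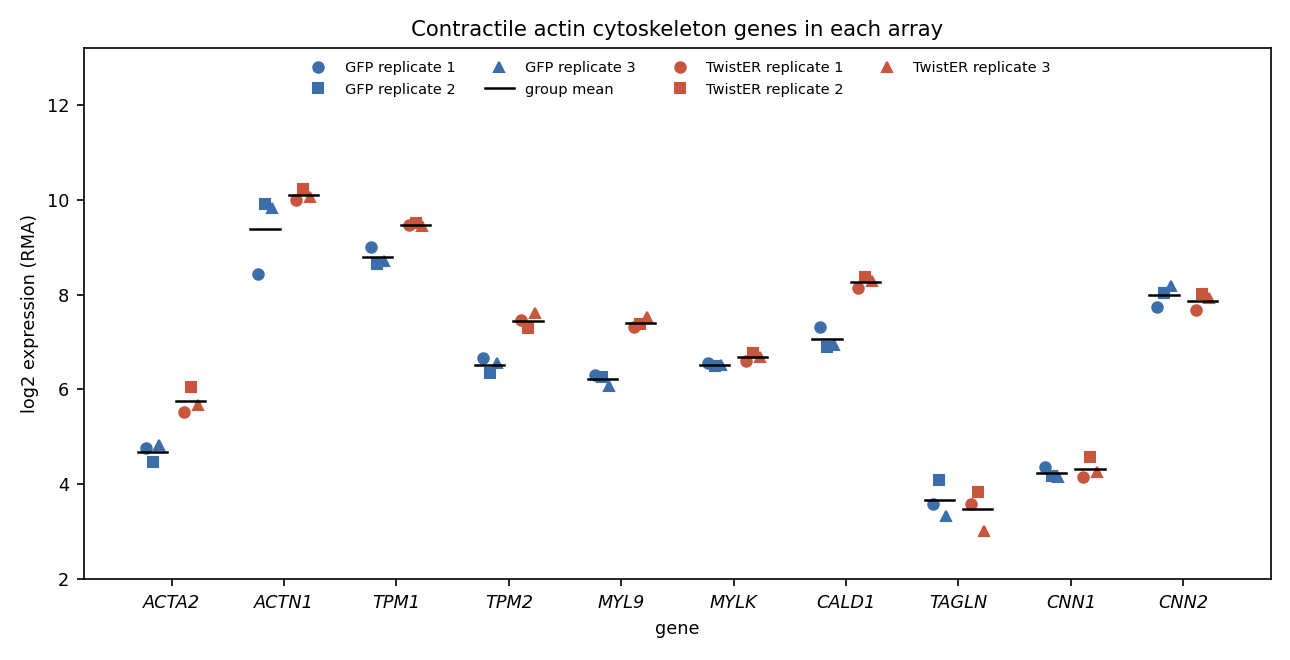
The log2 expression (RMA) of each of the 10 genes is plotted for every array, GFP in blue and TwistER in red, with the replicate given by the marker shape and the group mean by a black bar. The groups are clear of each other for ACTA2, TPM1, TPM2, MYL9 and CALD1, they overlap for TAGLN, CNN1 and CNN2, and 1 GFP point of ACTN1, replicate 1 at 8.44, lies far under the other GFP points.

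Labels were checked against E-cadherin (CDH1), the epithelial adhesion protein, and vimentin (VIM), the mesenchymal intermediate filament. CDH1 fell by 4.99 ± 0.23 (SE) on the log2 scale (limma adjusted p = 7.74e-06), while VIM rose by 0.59 ± 0.14 (adjusted p = 0.0332), a call lost when any 1 array other than GFP replicate 1 was left out (adjusted p up to 0.144). GFP replicate 1 stood apart, with r = 0.982 to each of the other GFP arrays against 0.996 between those 2 and 0.993 to 0.995 among the TwistER arrays. In it 254 genes (1.38%), ACTN1 among them, read at least 1 log2 unit under both other GFP arrays. Without this array 6.97% of genes rose and 8.09% fell, and 5 members rose and 0 fell. The members' differences are therefore also given without it.

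Actin and its crosslinker came first by role. ACTA2 encodes smooth muscle alpha-actin, the isoform whose assembly into stress fibres marks myofibroblasts. Its log2 expression was 4.76, 4.46 and 4.82 in GFP replicates 1 to 3 and 5.53, 6.05 and 5.67 in TwistER replicates 1 to 3. The lowest TwistER array was above the highest GFP array, and TwistER replicate 2 was the highest of all. The rise was 1.07 ± 0.16 (SE, 3 arrays per group, 95% interval 0.70 to 1.45), or 2.11-fold (limma adjusted p = 0.00438). It was 1.11 without GFP replicate 1. On the same arrays ACTB, cytoplasmic beta-actin, read 9.88, 11.33 and 11.27 in GFP and 11.25, 11.32 and 11.13 in TwistER, so the 5 arrays other than GFP replicate 1 lay close together. ACTB did not pass (0.41 ± 0.34, limma adjusted p = 0.577, and -0.06 without GFP replicate 1).

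ACTN1 encodes the alpha-actinin that crosslinks filaments in stress fibres and at focal adhesions. It read 8.44, 9.91 and 9.83 in GFP and 9.99, 10.22 and 10.06 in TwistER. The TwistER arrays were all above the GFP arrays, but 2 of the GFP arrays were near them and GFP replicate 1 was lower by 1.42 on the log2 scale than the mean of those 2. The difference was 0.70 ± 0.34 (95% interval -0.09 to 1.49) and did not pass (limma adjusted p = 0.294). Without GFP replicate 1 it was 0.23 (limma adjusted p = 0.212). ACTN4, the other non-muscle alpha-actinin, read 9.72, 10.39 and 10.35 in GFP and 9.82, 9.95 and 9.98 in TwistER. It did not pass either (-0.24 ± 0.18, limma adjusted p = 0.530), but without GFP replicate 1 it fell by 0.45 (adjusted p = 0.0185).

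Tropomyosins wind along the filament and set which myosins and severing proteins reach it. TPM1 read 9.00, 8.65 and 8.71 in GFP and 9.47, 9.51 and 9.44 in TwistER, where the arrays were tightly grouped (SD 0.04). It rose by 0.68 ± 0.12 (95% interval 0.40 to 0.97, limma adjusted p = 0.0102), a call lost without TwistER replicate 2, where the difference was 0.66 (adjusted p = 0.0572). Without GFP replicate 1 it was 0.79. TPM2 read 6.66, 6.35 and 6.56 in GFP and 7.47, 7.29 and 7.60 in TwistER. It rose by 0.93 ± 0.13 (95% interval 0.63 to 1.23), or 1.91-fold (limma adjusted p = 0.00292), and by 1.001 without GFP replicate 1. The ranges of the groups were clear of each other for both genes. TPM4, a cytoplasmic tropomyosin of most non-muscle cells, showed no such gap (11.86, 11.61 and 11.60 in GFP, 11.80, 11.69 and 11.63 in TwistER, difference 0.02 ± 0.12, limma adjusted p = 0.953).

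The motor was represented by its light chain and the kinase of that chain. MYL9 encodes a regulatory light chain of myosin II found in smooth muscle and non-muscle cells. It read 6.31, 6.27 and 6.08 in GFP and 7.31, 7.38 and 7.53 in TwistER, narrow groups with no overlap. It rose by 1.19 ± 0.12 (95% interval 0.92 to 1.46), or 2.28-fold, with the smallest adjusted p of the 10 genes (limma, 0.000493), and by 1.23 without GFP replicate 1. MYLK encodes the calcium-dependent kinase that phosphorylates this chain. It read 6.55, 6.50 and 6.52 in GFP and 6.61, 6.77 and 6.69 in TwistER. These ranges did not overlap, but the difference was 0.17 ± 0.10 (95% interval -0.07 to 0.40) and did not pass (limma adjusted p = 0.419; 0.18 with adjusted p = 0.269 without GFP replicate 1). The interval leaves out a rise as large as that of MYL9.

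Of the filament regulators CALD1, TAGLN, CNN1 and CNN2, CALD1 alone passed. It encodes caldesmon, which inhibits actomyosin and stabilises filaments. CALD1 read 7.32, 6.90 and 6.94 in GFP and 8.13, 8.36 and 8.29 in TwistER, and GFP replicate 1 was the GFP array nearest to the TwistER arrays. The rise of 1.21 ± 0.14 (95% interval 0.88 to 1.53), or 2.31-fold, was the largest difference of the 10 in size (limma adjusted p = 0.00118), and it was 1.34 without GFP replicate 1.

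TAGLN, transgelin, is an early smooth muscle gene that also marks myofibroblasts. It read 3.58, 4.08 and 3.33 in GFP and 3.57, 3.83 and 3.02 in TwistER, overlapping ranges at the dim end of the arrays (percentiles 17.2 in GFP and 14.2 in TwistER among all genes, by group mean). The difference was -0.19 ± 0.24 (95% interval -0.75 to 0.37, limma adjusted p = 0.740), and it was -0.23 without GFP replicate 1, 0.02 without GFP replicate 2 and 0.04 without TwistER replicate 3. CNN1, the smooth muscle calponin, was also dim (percentiles 25.8 and 26.9), at 4.36, 4.18 and 4.15 in GFP and 4.15, 4.57 and 4.25 in TwistER. Its ranges overlapped too (0.09 ± 0.14, 95% interval -0.22 to 0.41, limma adjusted p = 0.779; 0.16 without GFP replicate 1 and -0.03 without TwistER replicate 2). The deposited values carry no detection call, so whether these genes were above background was not tested.

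CNN2, the calponin of non-muscle cells, was bright in both groups (percentiles 82.7 and 82.0). It read 7.73, 8.03 and 8.18 in GFP and 7.67, 8.00 and 7.93 in TwistER, with no separation. The difference was -0.11 ± 0.15 (95% interval -0.46 to 0.23, limma adjusted p = 0.742), and -0.24 without GFP replicate 1 (adjusted p = 0.271). The upper ends of the intervals of TAGLN, CNN1, CNN2 and MYLK lie under the lower ends of those of ACTA2, MYL9, TPM2 and CALD1.

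**Figure D2:**
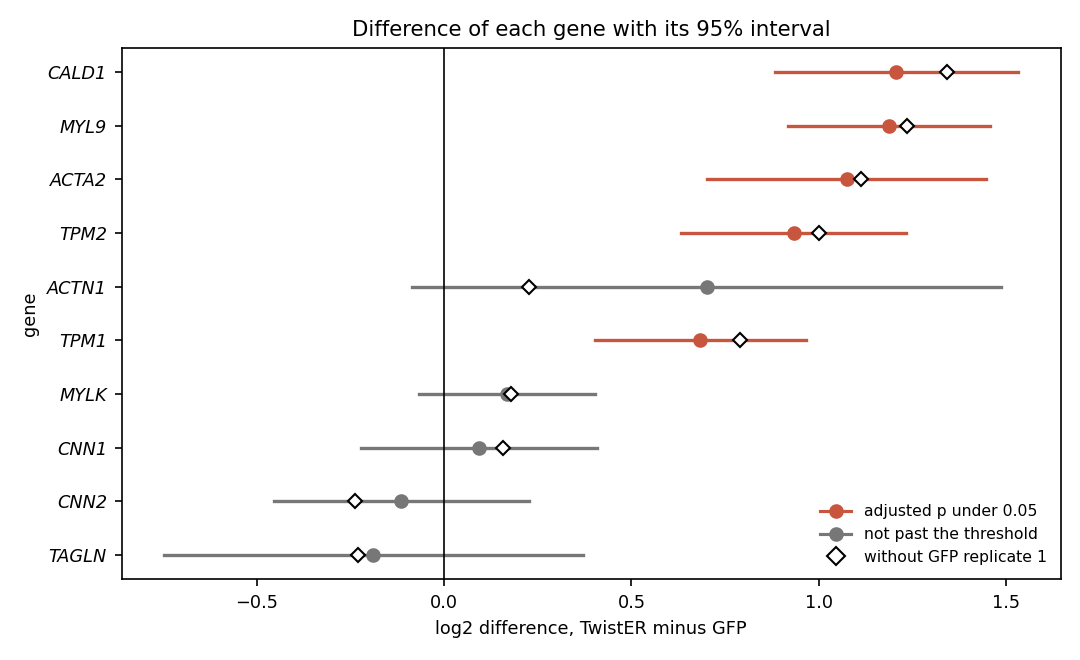
Horizontal axis, the log2 difference of each gene (TwistER minus GFP, 3 arrays per group) as a dot with its 95% interval, red where limma's adjusted p was under 0.05; open diamonds give the difference without GFP replicate 1. The 5 red intervals lie above 0, and the dot and diamond differ most for ACTN1 (0.70 against 0.23).

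Members were next set against close relatives within each array, as the log2 ratio of member over relative, because a ratio within an array is not moved by that array's overall brightness. Probe sets of different genes respond differently, so only the change of a ratio between groups was used, for 11 pairs in an exact permutation test (2-sided, 3 against 3 arrays). With 3 arrays a group the exact test cannot go below p = 0.1, so none could pass. MYL9 over MYL12A, the widely expressed regulatory light chain, changed by 1.26, and MYL9 over MYL12B by 1.37 (exact p = 0.1 for each, adjusted 0.157). MYL12A and MYL12B themselves did not pass (-0.07 ± 0.14 and -0.18 ± 0.16, limma adjusted p = 0.825 and 0.612). In each pair all 3 TwistER ratios lay above all 3 GFP ratios.

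The same separation was seen for TPM2 over TPM4 (change 0.91), TPM1 over TPM4 (0.66), and ACTN1 over ACTN4 (0.94). For ACTA2 over ACTG1, cytoplasmic gamma-actin (0.80), it was narrow, with -5.59 in GFP replicate 1 against -5.52 in TwistER replicate 1. The adjusted exact p of this pair was 0.157, but 0.4125 with a second quantile normalization and with cyclic loess. The ACTN1 over ACTN4 log2 ratio was -1.28, -0.48 and -0.52 in GFP and 0.17, 0.28 and 0.09 in TwistER. The lowest TwistER ratio was above the highest GFP ratio, and the change was 0.68 without GFP replicate 1, larger than the difference of ACTN1 itself without that array. CNN2 over CNN3, another non-muscle calponin, went the other way with no overlap (-0.29). ACTA2 over ACTB overlapped (0.67, exact p = 0.4) and changed by 1.18 without GFP replicate 1, where ACTB was low. TPM2 over TPM1 (0.25, exact p = 0.2) and CNN1 over CNN2 (0.21, exact p = 0.4) overlapped as well, and so did TAGLN over TAGLN2 (-0.23, exact p = 0.6), a ratio that was 0.13 without GFP replicate 1.

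**Figure D3:**
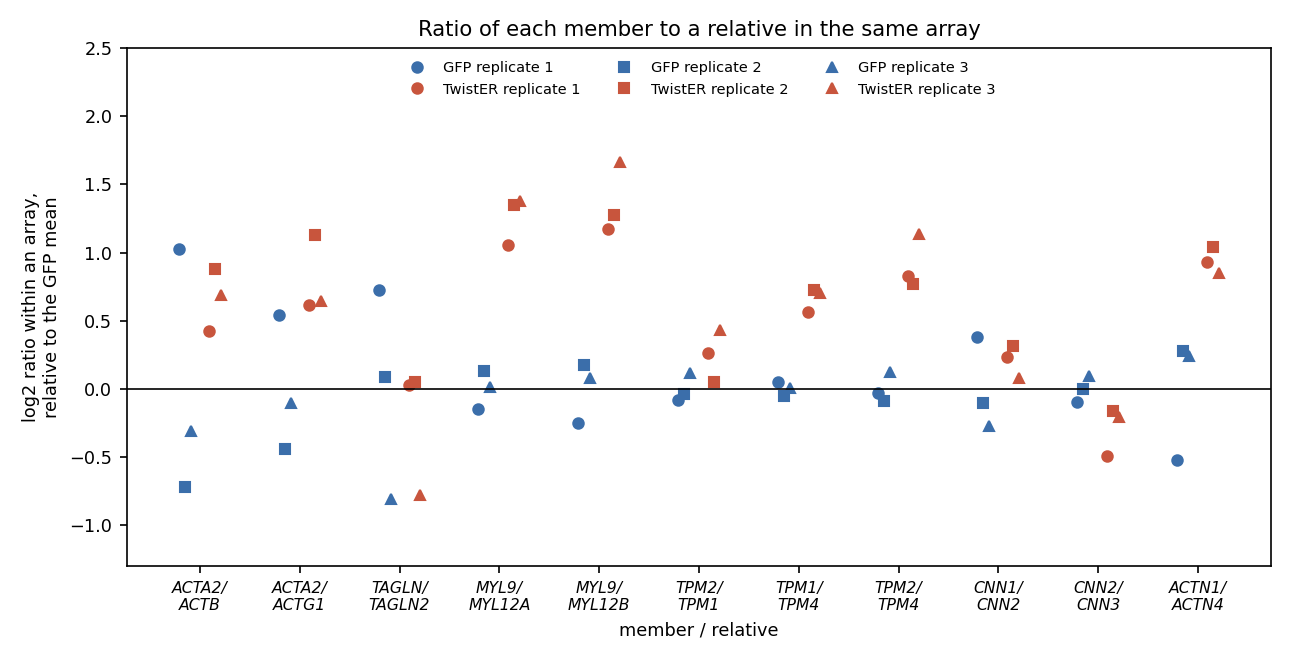
Vertical axis, the log2 ratio of a member to a relative in the same array, minus the mean of the 3 GFP arrays, for 11 pairs; colours give the line and marker shapes the replicate. The red points of MYL9 over MYL12A and over MYL12B sit above 1 while the blue points stay near 0, and GFP replicate 1 lies apart from the other GFP points for ACTA2 over ACTB and ACTN1 over ACTN4.

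The genes around the members were read from lists written from general knowledge, but with earlier results of these data known. The counts and medians of the lists are therefore a description and not an independent test. Each list is given by its counts in limma and its median log2 difference, beside 4.72% and 4.11% of all genes rising and falling. Those shares hold at the adjusted threshold only, and none is given for the counts at an unadjusted p under 0.05. Of 17 measured paralogs of the members, 0 rose and 0 fell (1 and 0 at an unadjusted p under 0.05, median 0.02); without GFP replicate 1 ACTN4 fell. Of 7 non-muscle myosin II subunits 0 rose and 0 fell (2 and 0 unadjusted, median 0.06), and the largest difference was in the heavy chain MYH9 (0.45 ± 0.14, adjusted p = 0.0824). With cyclic loess 2 of the 7 rose, with array weights 3, and with genes under percentile 50 of brightness left out 1. Over all genes 1688, 3268 and 1581 passed in these fits, against 1627 in the fit without these changes.

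The 17 regulators of light chain phosphorylation pooled kinases with myosin phosphatase genes, so their counts give no direction of phosphorylation. Without GFP replicate 1, 2 rose and 1 fell at the adjusted threshold. With all 6 arrays 1 rose and 0 fell (4 and 1 at an unadjusted p under 0.05, median 0.02). The riser was DAPK1, death-associated protein kinase, at 7.79, 8.05 and 8.13 in GFP and 8.85, 8.89 and 8.89 in TwistER (0.89 ± 0.12, limma adjusted p = 0.00244).

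Of SRF and its cofactors, 7 measured, 0 rose and 0 fell (1 and 0 at an unadjusted p under 0.05, median 0.03). The cofactor MRTFA was on the list but was not among the genes measured, so nothing is known of it here. The largest difference was in ELK3, a ternary complex factor (0.42 ± 0.14, limma adjusted p = 0.105, and 0.54 with adjusted p = 0.0139 without GFP replicate 1). Of 18 measured SRF target genes outside the members 3 rose and 2 fell (8 and 2 at an unadjusted p under 0.05), with a median of 0.26. With array weights, where 3268 genes passed in all, 5 rose, against 3 with the arrays unweighted. EGR1, an immediate early transcription factor, rose by 1.40 ± 0.15, and the matricellular proteins CCN2 and CCN1 by 1.23 ± 0.14 and 0.85 ± 0.12 (limma adjusted p = 0.000656, 0.000821 and 0.00334). FHL2, a LIM-domain protein, fell by 0.76 ± 0.11 (limma adjusted p = 0.00275), and the AP-1 factor JUNB by 0.68 ± 0.12 (limma adjusted p = 0.00861), a call lost without TwistER replicate 2 (0.0516).

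Sequence can be set beside these values. None of the 3 members with an exact CArG box in a window rose, and the box of MYLK lies by an internal start. None of the 4 risen members with a window (ACTA2, TPM1, TPM2, CALD1) had an exact box. With 1 base allowed to differ, ACTA2 and CALD1 had a match and TPM1 and TPM2 did not. Whether SRF acted on these genes was not tested. Of the 242 tested genes with a box in any window, 8.68% rose and 4.13% fell (median 0.04), and of the 14239 tested genes with a window 4.87% rose and 4.21% fell (median 0.007). Boxes outside the windows were not searched.

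Of 25 measured stress fibre and focal adhesion proteins, the structures into which the members assemble, 3 rose and 1 fell (median 0.26). At an unadjusted p under 0.05 the counts were 13 and 2, with no share of all genes to set beside them. In 13 of 25 every TwistER array was above every GFP array, against 13.9% of all genes. In 4 of 25 every TwistER array was below, against 2679 of all 18417 genes. TLN2, a talin that links integrins to actin, rose by 1.11 ± 0.12, and LPP, a zyxin-family protein of adhesions, by 0.71 ± 0.12 (limma adjusted p = 0.000889 and 0.00681). PARVA, a parvin of the integrin-linked kinase complex, rose by 0.76 ± 0.17 (limma adjusted p = 0.026, lost without any 1 TwistER array, up to 0.106). FHL2 was the gene that fell here also. Without GFP replicate 1, where 6.97% of all genes rose and 8.09% fell, 6 rose and 2 fell. With array weights, where 3268 genes passed in all against 1627 unweighted, 8 rose and 2 fell. Without TwistER replicate 1 or 2, 2 rose.

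Falls were seen among actin genes of epithelia. Of 17 organisers of the epithelial apex, the brush border and tight junctions, 6 fell and 0 rose (7 and 0 at an unadjusted p under 0.05), while 11 did not pass and the median was -0.04. MYO5C, a myosin of secretory traffic in epithelia, read 8.15, 8.28 and 8.28 in GFP and 5.01, 5.13 and 4.68 in TwistER and fell by 3.30 ± 0.14 (limma adjusted p = 5.92e-06). MYO5B, a myosin of apical recycling, fell by 1.56 ± 0.12, MYO6, a myosin that walks toward the minus end of filaments, by 1.38 ± 0.11 and cingulin (CGN), which joins tight junctions to actomyosin, by 1.33 ± 0.11 (limma adjusted p = 0.000125, 0.000182 and 0.000197). The fall of MYO5C was larger than any rise among the 10 members.

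**Figure D4:**
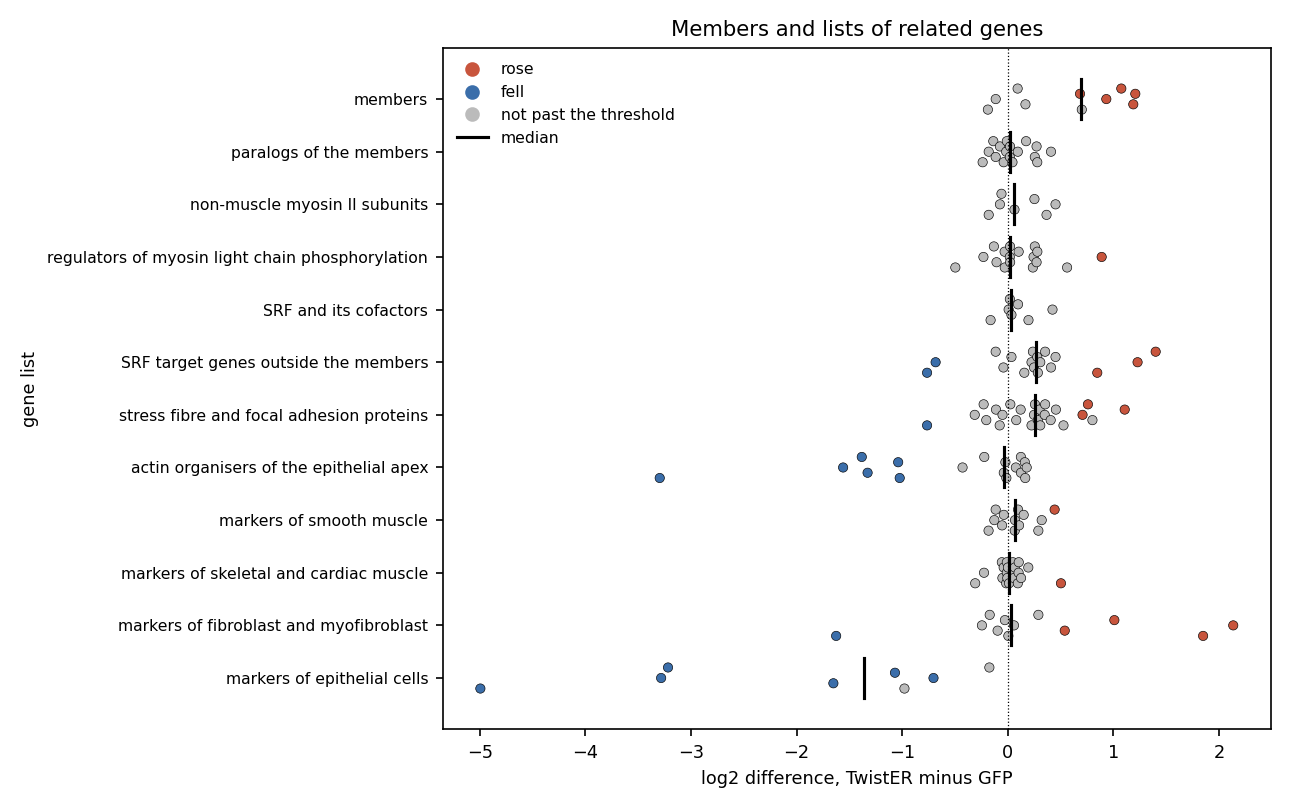
Horizontal axis, the log2 difference (TwistER minus GFP) of each gene of the members and of the 11 lists, red where it rose, blue where it fell and grey where it did not pass limma's threshold, with the list's median as a black bar. The bar of the members (0.69) lies right of the bars of the 11 lists, and blue points far left of 0 belong to the epithelial apex and epithelial markers.

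Members are also markers of smooth muscle and myofibroblasts, so other markers of such cells were measured. Of 13 smooth muscle markers outside the members 1 rose and 0 fell (1 and 0 at an unadjusted p under 0.05, median 0.07), and 12 of 13 were under percentile 50 of brightness in both groups. Their mean log2 value per array was 4.20 to 4.35 in GFP and 4.33 to 4.41 in TwistER. The defining genes did not pass: the heavy chain MYH11 (-0.05, limma adjusted p = 0.867), desmin DES (-0.04, adjusted p = 0.91) and the coactivator MYOCD (0.10, adjusted p = 0.793, at percentiles 7.18 and 7.94). The riser, synemin (SYNM, 0.44 ± 0.11, limma adjusted p = 0.0485), was no longer called when any array but GFP replicate 1 was left out (up to 0.186).

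Of 21 skeletal and cardiac muscle markers 1 rose and 0 fell (1 and 1 at an unadjusted p under 0.05, median 0.01). It was titin (TTN, 0.50 ± 0.12, limma adjusted p = 0.0319), lost in the same way (up to 0.131). Of 12 fibroblast and myofibroblast markers 4 rose and 1 fell (4 and 1 at an unadjusted p under 0.05), with a median of 0.03 and array means of 4.45 to 4.53 in GFP and 4.77 to 4.80 in TwistER. The fibrillar collagen COL3A1 rose by 2.13 ± 0.15, the matrix protein FBLN1 by 1.85 ± 0.13 and the receptor PDGFRA by 1.01 ± 0.13, while the proteoglycan LUM fell by 1.63 ± 0.18 (limma adjusted p = 7.6e-05, 8.12e-05, 0.00197 and 0.000889). Of 8 epithelial markers 6 fell and 0 rose (7 and 0 unadjusted), with a median of -1.36 and array means of 8.40 to 9.00 in GFP and 6.70 to 6.81 in TwistER. EPCAM and KRT19 fell by 3.28 and 3.22 on the log2 scale. The part of other cell types in the members' values was not tested.

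Averaged after centring each gene, the 10 members gave a profile of -0.32, -0.26 and -0.28 in GFP and 0.20, 0.41 and 0.26 in TwistER, with TwistER replicate 2 the highest. The genes outside the members whose 6 values followed it most closely were SLC9A9, a sodium-proton exchanger (Pearson r = 0.999), the intermediate filament NES (0.997), the urea cycle enzyme CPS1 (0.996), PTAR1 (0.995) and the transcription factor SNAI1 (0.995). These correlations are over 6 arrays that fall into 2 groups and describe likeness only. The profile's value in GFP replicate 1 includes ACTN1, which was lower there by 1.42 than the mean of the other GFP arrays. Over the 10 members the median of GFP replicate 1 minus that mean was 0.13. SLC9A9 read 4.28, 4.35 and 4.33 in GFP and 5.24, 5.74 and 5.45 in TwistER. SNAI1 read 4.82, 4.98 and 4.90 in GFP and 6.14, 6.43 and 6.29 in TwistER. Like the profile, both were highest in TwistER replicate 2 and their groups were clear of each other.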

How the data were processed

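Total RNA of 6 H358 samples was hybridised to a human gene microarray. The authors deposited log2 expression of each probe set, and the submitters' processing notes name RMA; no version or setting was found in the sources used here. RMA makes the arrays' distributions equal at the level of probes, which hides any global shift. The medians of the values used here still ran from 5.37 (GFP replicate 1) to 5.51 (TwistER replicate 3). Background shrinks differences of dim genes. Probes may be shared by related genes, such as the tropomyosins or actins.

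Of 33297 probe sets, 19460 had 1 gene symbol, 1754 several and 12083 none; the first gave 18417 genes. limma 3.58.1 (R 4.3.3; eBayes moderation, no covariates or filter, 2-sided) was fitted over all of them. Pairs were tested with scipy 1.17.1, and the script was tested on simulated data. Each array was left out in turn, and normalization, brightness filter, variance model, array weights and replicate block were varied. Same-numbered arrays deviated together at r = 0.139, 0.0154 and 0.157, so the numbers were not taken as pairs. Named are the 10 members, their relatives, up to 4 called genes per list (or the largest difference where none passed), CDH1, VIM, MYH11, DES, MYOCD and the 5 nearest patterns; ACTN4 and JUNB were added after their values were seen. Members and lists were chosen with earlier results of these data known. One list of related genes is not reported here.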

Additional observations from a re-analysis of the deposited data

How the results depend on the processing

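Over 16 alternatives, ACTA2 (15, since it falls under a filter at percentile 50 of brightness), MYL9, TPM2 and CALD1 stayed past the threshold in each one that tested them, and TPM1 in 15 of 16. The number of members that rose was 4 under that filter and without TwistER replicate 2, and 5 under the other alternatives; 0 fell in any. The members' median difference was 0.51 to 0.78 with 1 array left out, lowest without GFP replicate 1, and 0.54 with array weights. With a replicate block 5 members rose and 1592 genes passed. Genes past the threshold numbered 1627, 3268 with array weights and 831 to 2773 with 1 array left out (lowest without TwistER replicate 2, highest without GFP replicate 1; 1063 without GFP replicate 2, 912 and 935 without TwistER replicates 1 and 3), and 1609 were shared with the fit without GFP replicate 1; the cause of the differing counts was not tested. Among the members and the pairs, the differences that changed sign were those of TAGLN (-0.37 to 0.04 with 1 array left out; 0.02 without GFP replicate 2 and 0.0387 without TwistER replicate 3), CNN1 (-0.03 to 0.18, -0.0291 without TwistER replicate 2) and TAGLN over TAGLN2 (-0.64 to 0.13). Of the other named genes, ACTB, TAGLN2, TPM4, MYL12A, MYH11, DES and MYOCD, none of them called, also changed sign with 1 array left out. Of 352 list counts 308 stayed within 1.5 times, 22 were lower and 22 higher. Many of these counts are small or are 0 in both fits, so the 308 says little about how steady the lists are. With 3 arrays a group, differences of dim genes such as TAGLN and CNN1 are bounded only by their intervals.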
